A study of Drosophila melanogaster with 2 samples.

Results

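The genes described here are the nuclear protein-coding genes of Drosophila melanogaster whose symbols begin with ND-, UQCR-, COX or ATPsyn, which name subunits of respiratory complexes I, III and IV and of the ATP synthase, complex V. By symbol alone, the annotation holds 80 of them among 13945 protein-coding genes on arms 2L, 2R, 3L, 3R, 4 and X, with 40 in complex I, 9 in complex III, 16 in complex IV and 15 in complex V. Of these, 59 are the somatic-type genes and 21 are L paralogs, duplicates whose symbol ends in L, or in L and a digit, and which are known from flies as mostly testis-expressed copies. The peak lists hold no expression, so neither that expression pattern nor the proteins could be checked here. Subunits with other symbols (blw, sun, RFeSP, Cyt-c1, ox, levy, cype) and complex II were counted separately.

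The respiratory chain sits in the inner mitochondrial membrane. Complex I takes electrons from NADH to ubiquinone, complex III passes them on to cytochrome c, complex IV passes them to oxygen, and the proton gradient built on the way drives the ATP synthase. Most subunits are encoded in the nucleus and are needed in nearly all tissues, whereas Onecut, a transcription factor that joins a cut domain to a homeodomain, is known in flies mainly from neurons and photoreceptors.

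Onecut was mapped by chromatin immunoprecipitation with sequencing in whole embryos of mixed age, 0 to 24 hours old. The embryos came from a transgenic line with an insertion that makes Onecut fused to eGFP, and the antibody was directed against GFP. There were 2 biological replicates of this 1 group, so no condition was compared and the values below are counts and peak signals of 2 embryo collections. Whether the untagged protein was also present is not given in the sources used here. Every embryonic tissue was included, so a peak does not show in which cells the factor was bound.

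What is reported is the position of summits, the points of highest signal that the deposited lists give for each peak. The main list holds 6755 peaks made from both replicates at an irreproducible discovery rate (IDR) of 0.01. The IDR is low for peaks that rank both high and alike in the replicates. The thresholded lists of replicates 1 and 2 hold 5133 and 6023 peaks. The ranked lists behind them also hold peaks that missed the threshold, 32412 for both replicates, 31012 for replicate 1 and 38160 for replicate 2. Read depth is not given in the sources used here. A gene was called when a summit lay between 1000 bp upstream of its start and its end, and signal, whose scale is not given, was compared only within 1 list.

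The windows that carry the main observations, each a centre base with 50 bp on either side, are printed 5′ to 3′ on the strand of the member gene, from Release 6 of the genome (dm6 coordinates, RefSeq). Capitals mark the sequences ATCGAT and ATTGAT on either strand (ATTGAT reads ATCAAT on the other strand), the core bound by Onecut family proteins, and TATCGATA, the element of the factor DREF, which contains ATCGAT. The first 3 windows are the summits of the highest member of each complex that had one: ND-B18 at chrX:15062856-15062956, COX7AL at chr3R:8343408-8343508 and ATPsynG at chr2L:10976355-10976455.
ND-B18: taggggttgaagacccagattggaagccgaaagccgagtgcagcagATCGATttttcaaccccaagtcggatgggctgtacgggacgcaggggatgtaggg
COX7AL: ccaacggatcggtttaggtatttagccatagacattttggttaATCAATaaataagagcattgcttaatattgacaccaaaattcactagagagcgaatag
ATPsynG: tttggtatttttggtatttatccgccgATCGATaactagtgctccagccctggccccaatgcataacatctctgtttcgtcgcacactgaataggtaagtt

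ATPsynC at chr3R:31218998-31219098 and ATPsynO at chr3R:15265515-15265615 are shown because, like ATPsynG, they held ATCGAT within a summit window close to their own transcription start site (TSS). They were chosen after their values were seen, as were the other windows below.
ATPsynC: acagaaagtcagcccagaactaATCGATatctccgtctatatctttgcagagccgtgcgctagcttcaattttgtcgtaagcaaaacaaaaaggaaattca
ATPsynO: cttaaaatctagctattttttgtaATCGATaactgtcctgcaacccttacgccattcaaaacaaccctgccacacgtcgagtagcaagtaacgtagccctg

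The DREF element was found in 3 member windows, and all of these are given: COX7A at chr3R:8340992-8341092, ND-B14.5A at chrX:2172432-2172532 and ND-B14.5B at chr2L:3145709-3145809.
COX7A: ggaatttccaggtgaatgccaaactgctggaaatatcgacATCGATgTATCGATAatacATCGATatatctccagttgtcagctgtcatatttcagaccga
ND-B14.5A: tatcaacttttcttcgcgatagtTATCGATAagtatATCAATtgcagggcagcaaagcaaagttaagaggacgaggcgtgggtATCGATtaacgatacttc
ND-B14.5B: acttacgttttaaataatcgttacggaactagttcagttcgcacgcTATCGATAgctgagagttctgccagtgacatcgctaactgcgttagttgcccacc

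The start of ND-B14.5AL, the L paralog of ND-B14.5A, at chr3L:22606319-22606419, is set beside its partner because no thresholded list had a summit there and the window held none of the 3 sequences. The summit of ND-ASHI at chrX:6679355-6679455 is the highest member summit with none of them.
ND-B14.5AL: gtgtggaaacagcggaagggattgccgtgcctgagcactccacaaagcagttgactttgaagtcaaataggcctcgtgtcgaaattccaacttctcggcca
ND-ASHI: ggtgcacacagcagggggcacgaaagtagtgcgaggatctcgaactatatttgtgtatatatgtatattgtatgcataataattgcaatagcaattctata

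Onecut summits were found at respiratory chain genes about as often as at protein-coding genes in general. In the main list 30 of 80 members were called (37.5%, 95% Wilson interval 27.7 to 48.5), against 31.3% of all protein-coding genes. In the list of replicate 1, 24 members were called (30%, 21.1 to 40.8), against 26.2% of all genes. In the list of replicate 2, 27 were called (33.8%, 24.3 to 44.6), against 28.6%. Both replicate lists called 19 members (23.8%, 15.8 to 34.1), against 23.2%. In each of these lists the background lay inside the interval of the members. The pooled list called 32 (40%), against 32.3%. In shorter versions of the main list the background again lay inside the members' interval: at an IDR of 0.001 or lower 15 were called (18.8%, 11.7 to 28.7), against 22.2% of all genes, and in the stronger 50% of peaks 10 were called (12.5%, 6.93 to 21.5), against 20.1%. In the ranked list 52 members had a peak in the window (65.0%, 54.1 to 74.5), against 56.3%. The intervals cover counting only, and genes are not replicates.

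Set against genes of their own length, the members were called more often than the background. Member genes are short, with a median of 1092 bp against 2166 bp for all genes, and a short gene offers a shorter window. Of the 65 members of 2000 bp or less, 23 were called (35.4%, 24.9 to 47.5), whereas 17.1% of all genes of that length were. Neighbouring genes move with this count. Another protein-coding gene had a TSS within 500 bp of a TSS of 40 of the 80 members (50%), as it did for 30.9% of all genes. Among those 40 members 23 were called (57.5%), against 45.0% of all genes so placed, and among the other 40 members 7 were called (17.5%), against 25.1%.

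The count depends on which gene a shared summit is given to. A summit within 500 bp of a TSS of the gene itself, here called a promoter summit, was found at 26 members (32.5%, 23.2 to 43.4), against 23.4% of all genes and 14.4% of all genes of 2000 bp or less. A summit to which the gene's own TSS was the nearest was found at 16 members (20%, 12.7 to 30), against 23.6% of all genes. Among members of 2000 bp or less this nearest-TSS count was 11 of 65 (16.9%, 9.72 to 27.8). The share of all genes of that length, 10.7%, lies inside this interval. The gap between members and short genes was wider when a summit could count for a gene and its neighbour both. Whether Onecut acts on the member or on the neighbour was not measured.

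**Figure D1:**
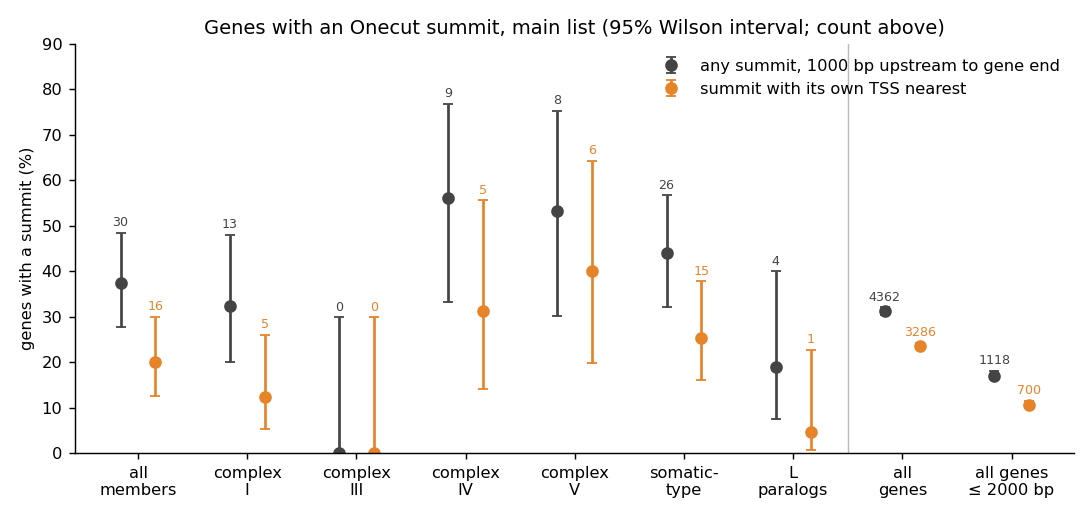
Percentage of genes with a summit in the main list, with 95% Wilson intervals as bars and the number of called genes above each point. Dark points count any summit in the gene window, which reaches 1000 bp upstream, and orange points count only summits whose nearest TSS is the gene's own. Complexes IV and V and the somatic-type genes have the highest points (56.2%, 53.3% and 44.1%), complex III is at 0, and all genes are at 31.3%.

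The counts are given by complex. Complex I had 13 of 40 genes called (32.5%, 20.1 to 48.0), complex III 0 of 9 (0 to 29.9%), complex IV 9 of 16 (56.2%, 33.2 to 76.9) and complex V 8 of 15 (53.3%, 30.1 to 75.2), beside the 31.3% of all genes. Among somatic-type genes alone the counts were 13 of 34, 0 of 6, 6 of 8 and 7 of 11. In the main list the interval of complex III lies below those of complexes IV and V, but in the lists of replicate 1, of replicate 2 and of the pooled data, each with 1 gene of complex III, it overlaps both. Complex V had 5 genes in replicate 1 (33.3%, 15.2 to 58.3), against 26.2% of all genes, and 8 in replicate 2. No test was run between complexes, because the genes are not replicates. With each summit given only to the gene with the nearest TSS, complex I had 5 genes (12.5%), complex IV 5 (31.2%) and complex V 6 (40%), against 23.6% of all genes.

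Complex I carried the highest member peak but mostly low ones. ND-B18, an accessory subunit of the membrane arm, had a signal of 984.2 in the main list, rank 154 of 6755, with 381.8 in replicate 1 and 606.2 in replicate 2. It was the highest member in all 3 lists. The summit lay 827 bp upstream of ND-B18 and nearer to hiw, an E3 ubiquitin ligase known from synapse growth, at 523 bp from its TSS. ND-B15, another accessory subunit, had 477.5 (162.5 in replicate 1, 309.8 in replicate 2) at 624 bp upstream, and the nearest TSS, 204 bp away, was that of CG10151. A second summit of 66.8 lay next to it.

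ND-ASHI had a signal of 369.7, with 216.7 in replicate 1 and 171.9 in replicate 2. Its summit lay 287 bp upstream of ND-ASHI and 235 bp from Fum1, which encodes fumarase of the citrate cycle, so 1 summit lay near start sites of a gene of the chain and a gene of the cycle that feeds it, whose annotated spans overlap. ND-MWFE had 279.2 (145.0 and 122.3 in replicates 1 and 2), at 199 bp upstream and 22 bp from the TSS of TppII, a peptidase. In each of these 4 genes the nearest TSS was a neighbour's, and each was past the threshold in both replicates.

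The other 9 called complex I genes had signals of 50.7 to 139.9, below the median of 192 over all called genes. ND-B14.5A stood highest among them at 139.9, with 68.6 in replicate 1 and 86.3 in replicate 2, at 44 bp upstream of its own TSS, and its window holds the DREF element printed above. ND-B14.5B had 106.2 at 38 bp upstream of its own TSS but was in neither replicate list, with ranked signals of 46.1 and 54.1 in replicates 1 and 2. Summits closest to a neighbour's TSS were those of ND-39 (127.0, 74 bp from ZnT77C), ND-42 (126.2, 83 bp from Cchl) and ND-SGDH (114.0, 76 bp from RhoGAP68F). ND-15, the longest member at 41305 bp, had 3 summits of 108.7, 102.1 and 99.0, and all 3 lay nearest to other genes (CG13694, CG3164 and Gs1).

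Of the 7 nuclear core subunits of complex I, which carry the electron path, 3 were called, beside 31.3% of all genes. A ranked peak was found at 6 of them, beside 56.3% of all genes. The called genes belong to the NADH-oxidising arm and the others to the quinone-binding arm, a grouping made after the values were seen, so it is a description only. The called genes were ND-51, which binds NADH and flavin, with 123.7, ND-24 with 123.3 and ND-75 with 50.7. ND-51 was in the list of replicate 2 alone at 70.0, ND-24 in that of replicate 1 alone at 49.9, and ND-75 in both, at 52.9 and 75.0 in replicates 1 and 2. In the main list each lay nearest to its own TSS, at 285 bp downstream, 61 bp downstream and 150 bp upstream in that order. The replicate summits of ND-75 lay elsewhere, 59 bp upstream in replicate 1 and 52 bp downstream in replicate 2. Its highest peak in the ranked list of both replicates was 132.0 at 51 bp downstream, with an IDR of 0.012, just above the limit of 0.01. The 4 uncalled genes of the quinone arm were ND-20, ND-23, ND-30 and ND-49. Of them, 3 had a ranked peak below the threshold (45.9, 38.8 and 59.0), and ND-49 had one in the ranked list of replicate 2 alone (15.1).

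No gene of complex III was called in the main list. UQCR-14, a small subunit, came closest, with a summit of 67.3 in the list of replicate 2 and of 94.3 in the pooled list, in replicate 2 at 12 bp downstream of its TSS, but its IDR between replicates was 0.069, and in the ranked list of replicate 1 it had 25.9. UQCR-C1, a core protein, had a summit of 46.6 in the list of replicate 1 and no ranked peak in replicate 2. The other core protein gene, UQCR-C2, had only ranked peaks of 21.3 in replicate 1 and 40.3 in replicate 2. UQCR-Q, UQCR-11L and UQCR-6.4L had ranked peaks of 50.2, 32.3 and 59.9, each with an IDR of 0.42 or more. UQCR-6.4 had a ranked peak of 11.7 in replicate 2 alone, and UQCR-11 and UQCR-14L were in no ranked list. With 9 genes, a count of 0 still allows a share of up to 29.9%. Complex III subunits under other symbols were mixed: Cyt-c1, the cytochrome that reduces cytochrome c, had 140.2 at 843 bp upstream, ox had 106.3, and RFeSP, the iron-sulphur subunit, had none.

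In complex IV, 2 of the 3 highest peaks were at L paralogs. COX7AL had 412.1 in the main list, with 182.3 in replicate 1 and 231.6 in replicate 2, at 211 bp upstream of the gene. COX8, a small structural subunit, had 299.8, with 166.3 and 148.2 in replicates 1 and 2, at 28 bp downstream of its own TSS. That summit also lay within 500 bp of VhaM9.7-b, a subunit of the vacuolar proton pump. COX7AL2 had 3 summits of 288.1, 147.5 and 142.1, and the highest, at 139.8 in replicate 1 and 160.6 in replicate 2, lay 379 bp upstream of its own TSS. These 3 genes were in both replicate lists and stood above all other complex IV genes.

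The remaining 6 complex IV genes were at or below 159.5. COX5B had 159.5 (92.6 and 76.2 in replicates 1 and 2), 28 bp from the TSS of IFT52. COX6B had 147.9 (66.0 and 75.2) at 28 bp upstream of its TSS, and 3 other genes, CG18809, CG33932 and Rpp20, also started within 500 bp of the summit. COX5A had 123.8, nearest to glo, and passed the threshold in replicate 1 alone. COX7C had 117.5 at 214 bp downstream of a TSS that lies inside the gene, not at its start. Another COX7C summit, of 102.6, lay 307 bp downstream of a COX7C TSS and 41 bp from that of oys. The summit of 117.5 is also the one counted for COX7CL, 653 bp upstream of that gene. The call of COX7CL is therefore not separate evidence. COX7A had 82.2 at 1 bp from its TSS and was in neither replicate list. COX7B was not called: it had 48.0 in replicate 2 and 82.8 in the pooled list, with an IDR of 0.013, just above the limit of 0.01. COX4 had only a ranked peak of 15.4 in replicate 1.

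In complex V, ATPsynG stood apart from the other somatic-type genes. ATPsynG, which encodes subunit g of the membrane part, had 645.3, rank 363, with 301.2 in replicate 1 and 321.7 in replicate 2. Its summit lay 6 bp upstream of the TSS, the closest to its own TSS of the 9 members above 192, and SCAR, a regulator of actin branching, starts within 500 bp of it. ATPsynepsilonL had 401.3, with 154.8 and 248.8 in replicates 1 and 2, but lay 332 bp upstream of the gene and 41 bp from the TSS of gammaSnap2, a factor of membrane fusion.

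The other 6 called complex V genes had similar, low signals between 89.7 and 132.0, and in 5 of the 6 the highest peak missed the threshold in replicate 1. ATPsynE, subunit e, had 132.0 (55.1 and 71.3 in replicates 1 and 2) and was in both lists. ATPsynF, subunit f, had 127.0 and was past the threshold in replicate 2 at 75.8, against a ranked signal of 48.7 in replicate 1. ATPsynC, the subunit of the membrane ring, had summits of 123.0 and 118.9, at 3 and 34 bp from its TSSs. ATPsynO, which joins the stalk to the catalytic head, had 120.0 at 26 bp upstream, with 82.8 in the list of replicate 2 and a ranked 36.8 in replicate 1. ATPsynbeta, the catalytic subunit, had 118.7 nearest to CG11076 and 84.0 at 85 bp downstream of its own TSS. ATPsynCF6 had 89.7 at 49 bp upstream and was in neither replicate list.

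The 4 uncalled somatic-type genes of complex V all had a ranked peak, so all 11 were in the ranked list of both replicates. That list had a peak in the window of 56.3% of all genes. ATPsynB had 46.4 in the list of replicate 1, ATPsynD had 53.7 in that of replicate 2, and the ranked peaks of ATPsyngamma and ATPsyndelta, at 60.7 and 58.2, had IDRs of 0.11 and 0.05. Subunit alpha, encoded by blw, was outside the symbol rule and had 207.6 at 87 bp upstream (83.0 and 117 in replicates 1 and 2). The gene sun, for subunit epsilon, was not called.

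**Figure D2:**
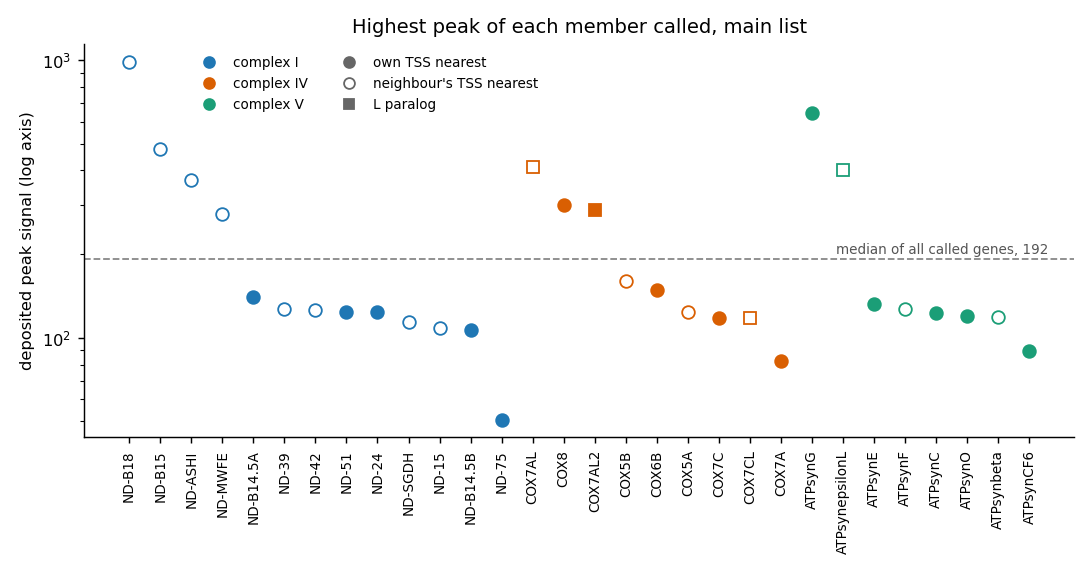
Signal of the highest peak of each of the 30 called members in the main list (vertical log axis), ordered by complex and height. Filled symbols mark peaks whose nearest TSS is the member's own, open symbols mark a neighbour's, and squares mark L paralogs. There are 9 members above the dashed line at 192, the median over all called genes.

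Taking the highest peak of each gene, called members had lower peaks than called genes in general. The median over the 30 members was 127, against 192 over all 4362 called genes, a ratio of 0.661. Summit by summit the gap was smaller, with a median of 124 over the members' summits and 149 over all summits. Replicate 1 alone gave medians of 72.6 and 103 (0.703), and replicate 2 alone gave 79.0 and 119 (0.666). For promoter summits alone they were 125 and 174 (0.720). The 37 separate member summits fell unevenly over the list: 9 ranked in the highest 25% of the list, 1 in the next 25%, 18 in the 25% after that and 9 in the lowest. The ratio turned above 1 under 3 other thresholds: it was 1.08 at an IDR of 0.001 or lower, 1.31 in the stronger 50% of peaks and 1.12 over all ranked peaks, with 15, 10 and 52 members in those lists.

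Of the 9 members above 192, only COX8, COX7AL2 and ATPsynG had their own TSS nearest. The other 6 high peaks lay closer to a neighbour's start. Peaks of the one common width of 436 bp made up 27 of the 37 member summits (73.0%), against 54.5% of all summits in the list.

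The main list was made from both replicates, so agreement of the replicates with its high and low members is not separate support. The highest peak overlapped a thresholded peak in both replicate lists for 16 of the 30 members, in 1 list for 11 and in neither for 3 (ND-B14.5B, COX7A and ATPsynCF6). All 9 members above 192 were among the 16. Counting any summit in the gene window, 19 of the 30 were in both lists (63.3%), against 73.4% of all called genes. A further 5 members, UQCR-14, UQCR-C1, COX7B, ATPsynB and ATPsynD, were in 1 replicate list and not in the main list. ND-MNLL, an accessory subunit of complex I, was in the pooled list alone (73.3, IDR 0.016).

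**Figure D3:**
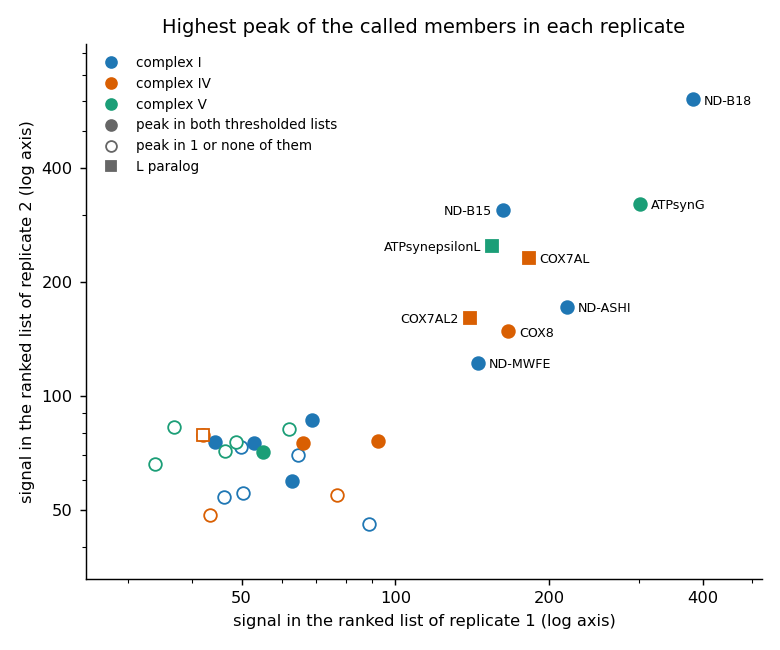
Signal of the highest peak of each called member in the ranked list of replicate 1 (horizontal log axis) and of replicate 2 (vertical log axis); each axis has the scale of its own list. Filled symbols mark peaks past the threshold in both replicate lists. The 9 labelled members are at 139.8 or higher in replicate 1 and 122.3 or higher in replicate 2, and the others are at 92.6 or lower and 86.3 or lower; COX7C and COX7CL share 1 point.

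Of the 50 members not called, 22 had a peak in the ranked list of both replicates, against 3495 of the 9583 uncalled protein-coding genes. The peaks of these members had signals between 28.3 and 94.3 and IDRs of 0.013 to 0.65. Beside those already named, these members were ND-18, ND-ACP (the mitochondrial acyl carrier protein), ND-B14.7, ND-B16.6, ND-B17, ND-B17.2, ND-B22 and ND-MLRQ, all at 55.1 or lower, and the L paralog ND-51L1 at 44.7. Another 16 members had a ranked peak in single replicates only. In complex I these included ND-13A, ND-13B, ND-19, ND-B12 and ND-B8, with 16.0 to 38.7 in replicate 2 alone. Among L paralogs they were ND-20L, ND-49L, ND-51L2, COX6AL and ATPsynCF6L, with 11.3 to 15.2 in replicate 1 alone, and ND-B14.5AL, with 13.3 in replicate 2 alone. The last 12 of the 80 members were in no ranked list, as were 4237 of all 13945 genes. These 12 members were the somatic-type genes ND-AGGG, ND-B14, ND-PDSW and UQCR-11 and the L paralogs ND-24L, UQCR-14L, COX4L, COX5BL, COX6AL2, COX6CL, ATPsynGL and ATPsynbetaL. By signal in the main list, the lowest called members were ND-75 at 50.7, COX7A at 82.2 and ATPsynCF6 at 89.7.

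Somatic-type genes had summits more often than L paralogs. Of the 59 somatic-type genes 26 were called (44.1%, 32.2 to 56.7), and of the 21 L paralogs 4 were (19.0%, 7.67 to 40), beside the 31.3% of all genes. Promoter summits were found at 23 somatic-type genes (39.0%) and at 3 L paralogs (14.3%), against 23.4% of all genes. With the own TSS nearest the counts were 15 (25.4%, 16.1 to 37.8) and 1 (4.76%, 0.846 to 22.7), against 23.6%. In the ranked list they were 45 (76.3%, 64.0 to 85.3) and 7 (33.3%, 17.2 to 54.6), against 56.3% of all genes. These intervals of the ranked list do not overlap. The intervals of the main list do overlap, and no test was run.

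Gene length and neighbours differ between these groups as well. The median length was 1178 bp for somatic-type genes and 703 bp for L paralogs. Among genes of 2000 bp or less, 20 of 48 somatic-type genes (41.7%, 28.8 to 55.7) and 3 of 17 L paralogs (17.6%, 6.19 to 41.0) were called, against 17.1% of all genes of that length. By this window count the L paralogs had about the share of short genes in general. With the own TSS nearest, 11 of the 48 somatic-type genes were called (22.9%, 13.3 to 36.5). By that rule 0 of the 17 L paralogs were called (0 to 18.4%), against 10.7% of all genes of that length. In the ranked list the shares at that length were 77.1% (63.5 to 86.7) for somatic-type genes and 29.4% (13.3 to 53.1) for L paralogs, against 38.8%. Another gene's TSS lay within 500 bp for 37 of 59 somatic-type genes (62.7%) and 3 of 21 L paralogs (14.3%). The part of these neighbours in the count was not tested. Of the 4 called L paralogs, COX7AL, ATPsynepsilonL and COX7AL2 were above 192, and COX7CL had 117.5 from the summit it shares with COX7C. The median of the called somatic-type genes was 125. Only COX7AL2 among the 4 had its own TSS nearest.

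Of the 21 pairs of a somatic-type gene and its L paralog, the somatic-type gene alone was called in 11, the L paralog alone in 1, both in 3 and neither in 6. Pairs share members, since ND-51, levy and COX7A each stand in more than 1. The pair called only in the L paralog was sun and ATPsynepsilonL. The sharpest contrast the other way was ATPsynG at 645.3 beside ATPsynGL, which was in no list. Both genes were called for COX7A with COX7AL and with COX7AL2, where the somatic-type gene had 82.2 and the paralogs 412.1 and 288.1. The third such pair was COX7C and COX7CL, 281 bp apart, with a summit in common. COX5BL, only 122 bp from COX5B, was not called although COX5B was. The 6 pairs with neither called were those of ND-20, ND-49, UQCR-11, UQCR-14, UQCR-6.4 and COX4.

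Called members had their summits close to a start site, but often not their own. The highest summit lay within 500 bp of the member's TSS in 24 of 30 called members (80%), against 64.1% of all called genes, and the median distance was 174 bp against 268 bp. Of those 24 summits, 16 also lay within 500 bp of another gene's TSS (66.7%), against 48.7% over all called genes. The member's own TSS was the nearest in 15 of 30 (50%), against 70.2% over all called genes.

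**Figure D4:**
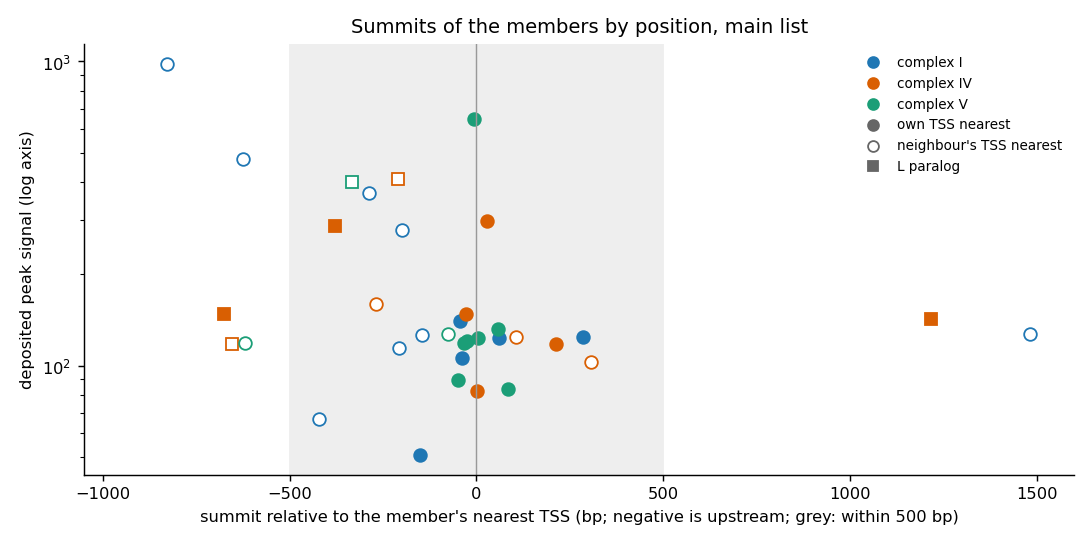
Distance of each member summit in the main list from the nearest TSS of that member (horizontal, bp; negative values are upstream) against its signal (vertical log axis). The grey band marks 500 bp either side, and open symbols have a neighbour's TSS nearest. Shown are 35 points, with the summit of COX7C and COX7CL drawn for both genes; the 3 summits of ND-15 lie farther away and are left out. Filled symbols cluster at the start and are mostly low, with ATPsynG at 645.3, COX8 at 299.8 and, farther upstream, COX7AL2 at 288.1 as high exceptions.

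The Onecut core was in a share of member windows whose interval holds the share of all summits. ATCGAT or ATTGAT, searched on both strands of the window of 50 bp either side, was in 18 of the 37 member summits (48.6%, 33.4 to 64.1), against 38.2% of all summits. At promoter summits it was in 15 of 28 (53.6%, 35.8 to 70.5), against 36.6% of all promoter summits. By form, ATCGAT was in 7 of these 28 (25.0%), against 22.7%, and ATTGAT in 9 (32.1%, 17.9 to 50.7), against 16.2%. In windows of the same length at gene starts, either form was in 17.5% for the members and 17.8% for all genes.

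Of the 9 members above 192, 8 had the core in their highest summit window (88.9%, 56.5 to 98.0), all but ND-ASHI. The other members have 20 separate highest summits, since COX7C and COX7CL share one, and 9 of these had it (45.0%, 25.8 to 65.8), so the intervals overlap. Over the separate highest summits of all called genes the shares were 51.4% above 192 and 34.6% at or below it. Within the window the core lay a median of 21.0 bp from the summit in the members and 15.5 bp over all summits, and it was within 20 bp of 7 of the 37 member summits (18.9%, 9.48 to 34.2), against 24.1% of all summits. The members' share was thus above that of all summits in the whole window and below it near the summit, with the share of all summits inside the members' interval both times. In ATPsynG, ATPsynC and ATPsynO, printed above, it lies upstream of the summit. These are matches of letters, and binding at a single core was not measured.

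Of the other sequences searched, the DREF element TATCGATA was in 3 of 37 member windows (8.11%, 2.80 to 21.3), against 1.79% of all summits. Those were the low peaks of COX7A, ND-B14.5A and ND-B14.5B, and since TATCGATA contains ATCGAT the matches to both overlap. All 3 were promoter summits. Among promoter summits TATCGATA was in 3 of 28 member windows (10.7%, 3.71 to 27.2), against 3.83% of all promoter summits, which lies inside that interval. In windows of the same length at gene starts it was in 2 of 80 members, against 5.56% of all genes. GAGAG was in 5 of the 37 summit windows (13.5%, against 15.3%) and CAGCTG in 2 (5.41%, against 5.60%). GCGCATGC and CCGGAA were in 1 each, and GGTCACACT, CACACAC and TGACGTCA in none.

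The members' promoters themselves, 250 bp before to 50 bp after the gene start, were searched for the same sequences. The gene start can differ from the TSS nearest to a summit. ND-B14.5B, whose summit window holds TATCGATA, had none of the sequences in its promoter. No test was run, and for each sequence given here the intervals of the somatic-type genes and the L paralogs overlap. GGTCACACT, known as Motif 1 of fly core promoters, was in 14 of 59 somatic-type promoters (23.7%, 14.7 to 36.0) and in 1 of 21 L paralogs (4.76%, 0.846 to 22.7), against 6.05% of all promoters. It was in 5 of the 30 called members (16.7%) and 10 of the 50 uncalled (20%). TATCGATA was in 9 somatic-type promoters (15.3%, 8.24 to 26.5) and in 0 L paralogs (0 to 15.5%), against 9.36%. CAGCTG was in 18 (30.5%, 20.3 to 43.1) and 1 (4.76%, 0.846 to 22.7), against 17.7%. GAGAG was in 10 (16.9%, 9.48 to 28.5) and 7 (33.3%, 17.2 to 54.6), against 29.7%. ATCGAT or ATTGAT had nearly equal shares, with 31 somatic-type (52.5%) and 11 L promoters (52.4%), against 39.3% of all. It was in 19 called (63.3%, 45.5 to 78.1) and 23 uncalled members (46.0%, 33.0 to 59.6), and in 4 of 9 in complex III.

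Other genes of the pathway were counted by lists. Of the 9 chain subunits and carriers under other symbols, 7 had a summit in the main list, and the highest were the cytochrome c genes Cyt-c-d at 549.4 and Cyt-c-p at 379.2, which carry electrons between complexes III and IV. Complex II, the succinate dehydrogenase shared with the citrate cycle, had 4 of 6, led by SdhA at 275.0 and SdhC at 208.0. The citrate cycle list, in which the pyruvate dehydrogenase genes Pdha and Pdhb were counted with the cycle, had 9 of 14. It was led by Pdhb at 789.2 and Idh3g at 485.8. The list drawn up as assembly factors had 4 of the 15 that were annotated, with CIA30 at 1563.9 and Tina-1 at 975.2. Whether Tina-1 is an assembly factor was not established. Regulators of chain genes had 6 of 14, with Dref, which encodes the factor of the DREF element, at 535.9 and crc, the fly ATF4, at 347.0. All are to be read beside the 31.3% of all genes.

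The families most like the members gave 25 of 73 mitochondrial ribosomal protein genes (34.2%, 24.4 to 45.7), led by mRpS23 at 1484.0 and mRpL41 at 1448.0, and 16 of 33 vacuolar proton pump genes (48.5%, 32.5 to 64.8), led by VhaM9.7-a at 1674.1 and Vha68-1 at 1614.9. These intervals overlap that of the members, 27.7 to 48.5, and no test was run between families. Each of these 4 leading peaks was higher than that of any member.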

How the data were processed

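Peak lists from chromatin immunoprecipitation of Onecut-eGFP in 2 biological replicates were used as deposited, in dm6 coordinates. The authors derived them from replicate alignments and a control alignment, per the file headers (a separate read-me text). Aligner, peak caller, versions and depth: not given in the sources used here. Each peak has a deposited signal, on a scale not given. In the ranked lists the authors' files give a −log10 of the IDR, and the thresholded lists were cut at 0.01. The 8 peaks of the main list outside the arms were left out.

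Summits were placed on genes of Ensembl release 115 and sequence of Release 6 with Python 3.11.15, which was tested on simulated peaks; Wilson intervals came from scipy 1.17.1 and figures from matplotlib 3.10.9. No significance test was run: with 1 group of 2 replicates the design holds no contrast, and genes are not replicates. The replicates were read from their own lists and side by side. The members and lists were chosen with earlier results of these data known. Values are given for the 3 highest genes of each complex, each called L paralog, the 2 highest genes of each other list and, beyond that rule, other members chosen after their values were seen. Of the assembly factor, regulator and citrate cycle symbols, 15 of 20, 14 of 15 and 14 of 16 matched the annotation. Other settings of list, threshold, gene window, promoter window and motif window were tried.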

Additional observations from a re-analysis of the deposited data

How the results depend on the processing

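Across 16 alternatives, 69 of 111 values stayed within 1.5 times the value reported (or, for the motif share, within its interval) and 42 did not; where no cause is named, it was not tested. Leaving out a replicate, which uses the list of the other alone, gave 24 to 27 members, 21 to 23 somatic-type genes, 3 to 4 L paralogs, 10 to 11 genes in complex I, 1 in complex III either way, 7 to 8 in complex IV, 5 to 8 in complex V and 21 promoter summits; the height ratio was 0.666 to 0.703 and the motif share 37.5% to 48.5%. The pooled list gave 1 gene in complex III. Shorter lists hold fewer genes. At an IDR of 0.001 or lower (3969 peaks) the counts were 15 members (22.2% of all genes), 12 somatic-type, 6 in complex I, 5 in IV, 4 in V and 13 with promoter summits (15.7%), with a height ratio of 1.08 and a motif share of 64.7%. In the stronger 50% of peaks they were 10 members (20.1%), 7 somatic-type, 4 in complex I, 4 in IV, 2 in V and 8 with promoter summits (13.8%), with 1.31 and 80.0%. The members' share was below that of all genes in both shorter lists, with the share of all genes inside its interval. All ranked peaks gave 52 members (56.3%), 45 somatic-type, 7 L paralogs, 26 in complex I, 4 in III and 47 with promoter peaks (48.0%), with 1.12 and 31.7%.

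With no upstream part, 13 members (17.3% of all genes), 12 somatic-type genes, 1 L paralog, 5 genes in complex I, 5 in IV and 3 in V were called. With each summit given to the nearest TSS alone, the counts were 16 members (23.6%), 15 somatic-type, 1 L paralog, 5 in complex I, 5 in IV and 16 with promoter summits (18.7%). A motif window of 51 bp gave 29.7%. Promoter summits near no other gene, an alternative chosen after seeing the data, were found at 8 members, against 13.0% of all genes. No paired analysis was possible because the series holds 1 group. Depth is unknown, so an uncalled gene is one with no summit of the main list in its window, not one shown to be unbound.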
